A study of Mus musculus with 106 samples.

Results

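Spi1 and the 6 genes named Cebp (Cebpa, Cebpb, Cebpd, Cebpe, Cebpg and Cebpz) were read in 70 lists of H3K27ac and H3K4me3 peaks from mouse bone marrow cells. They are 7 of 21938 protein-coding genes and were chosen by name. Each gene was read at its promoter, within 1 kb of any annotated start site, and over its locus, the gene body with 50 kb to either side. H3K27ac, acetylation of lysine 27 of histone H3, marks active promoters and enhancers. H3K4me3, trimethylation of lysine 4, marks promoters.

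Spi1 encodes PU.1, an ETS-family transcription factor that opens chromatin at macrophage and lymphoid enhancers and without which macrophages do not form. Cebpa, Cebpb, Cebpd and Cebpe encode leucine-zipper activators of myeloid genes: C/EBPα acts in the step from stem cells to granulocyte and macrophage progenitors, C/EBPβ and C/EBPδ in inflammatory responses, and C/EBPε late in granulocyte formation. Cebpg encodes a C/EBP that lacks an activation domain and pairs with the others, and Cebpz encodes a CCAAT-box binding protein outside the leucine-zipper family.

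All mice were C57BL/6J, 12–14 weeks old when assigned to the control or diabetic group. Diabetic mice had received streptozotocin, a toxin of insulin-producing beta cells, at 42–45 mg/kg on each of 5 days, and those with a non-fasted glucose above 13.9 mmol/L gave tissue 6 weeks after the injections. Control mice were age-matched and non-diabetic. The cells called hematopoietic stem cells (HSC) were bone marrow depleted of cells with CD3, CD4, B220, Ter119 or Gr1, so they are a lineage-negative mixture and not purified stem cells. Bone marrow-derived macrophages (BMDM) were grown for 7 days in 5 mmol/L glucose with 20% L929-conditioned medium, a source of macrophage growth factor. They were then either left in medium (unstimulated) or given 100 ng/mL LPS with 10 ng/mL IFN-g. The study's general macrophage protocol gives 16 h for this step, and its methods for these libraries give no time. Each of these 6 groups had 6 lists per mark, except unstimulated diabetic BMDM, which had 5 (its list 3 was not analysed here). In such mixtures, a larger share of cells with a mark and more of the mark per cell cannot be told apart.

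The lists held 51162 to 176559 H3K27ac peaks and 13730 to 277213 H3K4me3 peaks, and the read depth behind them is unknown. Levels are therefore given as a promoter percentile: within each list, all 21938 genes were ordered by the −log10 p of their strongest promoter peak, so that 100 is the strongest and a gene without a peak takes the middle rank of the unmarked genes. Promoters of 56.8% to 73.6% of genes held an H3K27ac peak. The mean H3K27ac promoter percentile of 10 stem and progenitor genes was 51.3 to 58.3 in the 12 HSC lists and 31.6 to 49.8 in the 23 BMDM lists. That of 11 macrophage genes was 26.8 to 32.6 and 43.3 to 68.7, so in this mark neither gene list overlapped between the cells. Erythroid markers were also higher in HSC (51.7 to 72.5 over 8 genes) than in BMDM (34.7 to 45.2). The 10 granulocyte markers, with Cebpe itself among them, were at 31.0 to 44.2 and 24.4 to 36.8. Those of T and NK cells (6 genes) were at 35.9 to 46.4 and 24.9 to 40.6. B lymphoid markers (6 genes) were at 33.4 to 54.9 and 30.5 to 45.9, and megakaryocyte markers (5 genes) at 41.5 to 52.1 and 36.6 to 51.7. The part of these other cells in the differences between HSC and BMDM given here was not tested. For H3K4me3 the stem and progenitor genes were at 53.6 to 73.1 in HSC and 57.0 to 72.3 in BMDM. The macrophage genes were at 22.5 to 35.1 and 31.6 to 58.1, so in this mark both gene lists overlapped between the cells. An earlier account of the lists had set 7 apart: H3K27ac lists 5 and 6 of unstimulated control BMDM and 5 of stimulated control BMDM, and H3K4me3 lists 6 of both control BMDM groups and 1 and 2 of stimulated diabetic BMDM. Results were also computed without them.

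Sequences are given in GRCm38 for the regulatory stretches the values refer to. The promoters shown belong to Cebpa and Cebpb, whose H3K27ac percentile rose between HSC and BMDM, and to Cebpg, whose H3K4me3 percentile fell. They are the 250 bases before the RefSeq start sites at chr7:35119043-35119292 (plus strand), chr2:167688665-167688914 (plus strand) and chr7:35056567-35056816 (minus strand). Their GC contents were 66.4%, 81.6% and 70.8%. None holds the PU.1 core AGGAAG or the C/EBP motif TTGCNNAA, searched on both strands. Of 32851 promoters of that length, 29.5% hold the first and 9.56% the second.
Cebpa promoter: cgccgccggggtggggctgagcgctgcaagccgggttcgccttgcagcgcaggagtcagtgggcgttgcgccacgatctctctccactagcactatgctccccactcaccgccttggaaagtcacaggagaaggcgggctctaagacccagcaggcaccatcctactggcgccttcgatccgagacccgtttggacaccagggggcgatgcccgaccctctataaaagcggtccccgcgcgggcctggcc
Cebpb promoter: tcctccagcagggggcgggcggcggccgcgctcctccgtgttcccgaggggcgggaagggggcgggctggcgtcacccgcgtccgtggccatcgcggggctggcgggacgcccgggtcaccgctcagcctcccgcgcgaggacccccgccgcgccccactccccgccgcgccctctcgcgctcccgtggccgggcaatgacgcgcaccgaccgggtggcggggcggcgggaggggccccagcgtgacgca
Cebpg promoter: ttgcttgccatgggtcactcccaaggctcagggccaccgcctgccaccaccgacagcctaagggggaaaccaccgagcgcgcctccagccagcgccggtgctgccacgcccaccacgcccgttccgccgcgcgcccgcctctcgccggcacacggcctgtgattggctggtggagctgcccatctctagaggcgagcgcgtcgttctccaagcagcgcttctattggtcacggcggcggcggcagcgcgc

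The distal stretches are 300 bases of the known myeloid enhancers of Spi1, Cebpa and Cebpe, with any PU.1 core in capitals on the gene's strand. They lie at chr2:91082090-91082389 (plus strand, 14.0 to 13.7 kb before the Spi1 start), chr7:35156762-35157061 (plus strand, 37.5 to 37.8 kb after the Cebpa start) and chr14:54706857-54707156 (minus strand, 5.0 to 5.3 kb after the Cebpe start). The Cebpa and Cebpe windows lie around the most shared H3K27ac summits and held the summit of 35 of 35 lists and 12 of 27. The Spi1 window was moved to end just before an annotated exon, at a Spi1 start site 13.7 kb before the main one. It held 3 of 29 summits. The Spi1 stretch holds 1 PU.1 core, the Cebpe stretch 2 (one reads CTTCCT, the reverse complement), and the Cebpa stretch none. No stretch holds TTGCNNAA. In the middle 300 bases of 192991 H3K27ac regions, AGGAAG was found in 35.8% and TTGCNNAA in 8.37%.
Spi1 upstream element: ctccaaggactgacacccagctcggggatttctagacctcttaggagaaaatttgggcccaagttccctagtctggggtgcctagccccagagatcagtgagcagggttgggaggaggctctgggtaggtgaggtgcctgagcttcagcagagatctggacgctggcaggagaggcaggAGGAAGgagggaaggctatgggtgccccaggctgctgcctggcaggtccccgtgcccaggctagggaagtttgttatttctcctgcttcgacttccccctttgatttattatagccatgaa
Cebpa enhancer: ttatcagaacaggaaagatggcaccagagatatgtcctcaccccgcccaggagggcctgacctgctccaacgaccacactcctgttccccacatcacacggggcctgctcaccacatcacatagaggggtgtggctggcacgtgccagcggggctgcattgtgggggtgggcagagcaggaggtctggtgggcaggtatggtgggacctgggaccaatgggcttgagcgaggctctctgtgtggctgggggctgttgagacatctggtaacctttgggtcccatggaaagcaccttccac
Cebpe enhancer: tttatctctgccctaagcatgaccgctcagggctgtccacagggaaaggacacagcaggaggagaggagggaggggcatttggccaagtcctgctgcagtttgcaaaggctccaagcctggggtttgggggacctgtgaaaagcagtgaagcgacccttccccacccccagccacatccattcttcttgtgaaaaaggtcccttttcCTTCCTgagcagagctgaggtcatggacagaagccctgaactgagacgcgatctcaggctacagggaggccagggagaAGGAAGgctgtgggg

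The first question was which of these promoters differ between progenitors and macrophages. H3K27ac at the Cebpa, Spi1 and Cebpb promoters rose from control HSC to control BMDM, and at the Cebpa, Spi1 and Cebpd promoters from diabetic HSC to diabetic BMDM. That is 3 of 7 members in each comparison, beside 11% and 10.7% of all genes called in either direction (limma over all genes, adjusted p under 0.05). The median difference of the 7 members was 8.37 percentile points in control cells and 4.72 in diabetic cells, against 0.568 and −0.442 for all genes. Cebpe, Cebpg and Cebpz were not called in either comparison. All 7 promoters held an H3K27ac peak in all 35 lists.

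Spi1 (ENSMUSG00000002111.8, chr2:91082390-91115756, plus strand) had promoter percentiles of 61.0 to 86.6 in the 6 control HSC lists (median 69.8) and 64.5 to 99.8 in the 6 control BMDM lists (median 96.5). Of the BMDM lists, 4 lay above every HSC list and 2 (72.5 and 64.5, lists 5 and 4) lay among them. The mean difference was 17.8 (SE 5.27, limma adjusted p = 0.0228). The call was lost when BMDM list 1, 2, 3 or 6 was left out (15.5, 15.6, 16.3 and 15.9, adjusted p 0.0563 to 0.0666) and when HSC list 1 or 3 was left out (16.4 and 15.9, adjusted p = 0.0577 and 0.0594). Without the lists set apart it was 19.4 (adjusted p = 0.0306). It was also lost in an exact permutation test per gene (adjusted p = 0.175) and when peaks were ordered by fold (5.11, adjusted p = 0.713). The median rank of the Spi1 promoter peak among all peaks of a list was 6114 in control HSC and 743 in control BMDM.

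In diabetic cells the Spi1 promoter was at 66.2, 69.7, 69.3, 73.2, 65.4 and 63.2 in HSC and at 96.3, 99.3, 92.6, 78.6 and 80.3 in BMDM. All 5 BMDM lists lay above all 6 HSC lists. The difference was 21.6 (SE 5.52, limma adjusted p = 0.00807), and it ranged from 19.1 to 24.3 with 1 list left out, called each time. On normal scores of the ranks (adjusted p = 0.0747) and when peaks were ordered by fold (16.6, adjusted p = 0.0627) it was not called. Stimulated BMDM were at 85.1 to 99.1 (control) and 74.1 to 99.7 (diabetic).

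Cebpa (ENSMUSG00000034957.10, chr7:35119293-35121928, plus strand) did not overlap between the cells in either comparison. In control cells its promoter was at 48.5 to 62.1 in HSC (median 54.1) and 66.1 to 87.9 in BMDM (median 82.6), and the difference was 25.3 (SE 3.79, limma adjusted p = 1.27e-05). In diabetic cells it was at 63.4, 61.0, 58.1, 63.0, 57.0 and 58.1 in HSC and at 84.6, 80.3, 98.9, 77.9 and 76.0 in BMDM, and the difference was 23.4 (SE 3.98, limma adjusted p = 9.73e-05). Both calls held under every alternative tried, with 1 list left out included (23.8 to 28.2 and 19.6 to 25.3). The promoter peak was 1.65 ± 0.253 kb wide in control HSC and 3.39 ± 0.823 kb in control BMDM (SD, n = 6), and its median rank was 12886 and 3608.

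Cebpb (ENSMUSG00000056501.3, chr2:167688915-167690418, plus strand) was high in both cells. Its promoter was at 72.9 to 92.8 in control HSC (median 78.9) and 88.7 to 98.6 in control BMDM (median 95.6). The groups overlapped by 1 HSC list, at 92.8. The difference was 14.6 (SE 3.21, limma adjusted p = 0.00193), and an exact permutation test per gene gave an adjusted p of 0.0587. In diabetic cells the promoter was at 82.4 to 90.8 in HSC and at 90.5, 86.7, 91.6, 88.99 and 98.8 in BMDM, a difference of 4.72 that was not called (SE 3.36, limma adjusted p = 0.466). The difference between those 2 comparisons was −9.91 (SE 4.65) and was not called (limma adjusted p = 0.943). The peak was 2.48 ± 0.514 kb wide in control HSC and 5.24 ± 2.42 kb in control BMDM. 1 of the annotated starts of Tmem189 lies within 1 kb of the same site, so its promoter reading is partly shared.

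Cebpd (ENSMUSG00000071637.5, chr16:15887286-15891031, plus strand) was at 72.9, 72.9, 70.04, 66.7, 67.6 and 63.3 in diabetic HSC and at 87.9, 74.6, 80.4, 74.4 and 82.6 in diabetic BMDM. The groups did not overlap, although the lowest BMDM lists lay close above the highest HSC lists. The difference was 11.1 (SE 3.52, limma adjusted p = 0.0360). The call was lost without BMDM list 1 (9.10, adjusted p = 0.127), 4 or 6 (10.99 and 10.4) or HSC list 4, 5 or 6 (10.6, 10.8 and 9.97). It was also lost with the 10000 strongest peaks of each list (adjusted p = 0.0914) or with peaks ordered by fold (12.8, adjusted p = 0.159). In control cells the difference was 8.37 (SE 3.36, limma adjusted p = 0.1101), with means of 68.8 ± 5.7 in HSC and 77.2 ± 5.3 in BMDM (SD, n = 6).

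Cebpe (ENSMUSG00000052435.7, chr14:54710360-54712174, minus strand) was the lowest of the 7. It ranged from 44.9 to 64.9 over the 35 H3K27ac lists, and its group means lay between 50.3 and 57.9. The difference between control BMDM and HSC was 7.66 (SE 3.05, limma adjusted p = 0.107). It passed only when unmarked genes were set to 0, an alternative chosen after seeing the data (adjusted p = 0.0456).

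Cebpg (ENSMUSG00000056216.9, chr7:35046422-35056573, minus strand) was at 73.5 to 99.4 (median 91.4) in the 35 lists. Its group means of H3K27ac were 88.8 to 93.3, with differences between BMDM and HSC of −3.09 and −4.42 that were not called. Cebpz (ENSMUSG00000024081.9, chr17:78919006-78937066, minus strand) was at 56.6 to 92.1 (median 73.3), with differences of −4.15 and −4.78 that were not called. Cebpz shares its promoter with Ndufaf7, and the percentiles of both agree in every list (Pearson r = 1.000 over 35 lists), so the reading belongs to both genes.

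**Figure D1:**
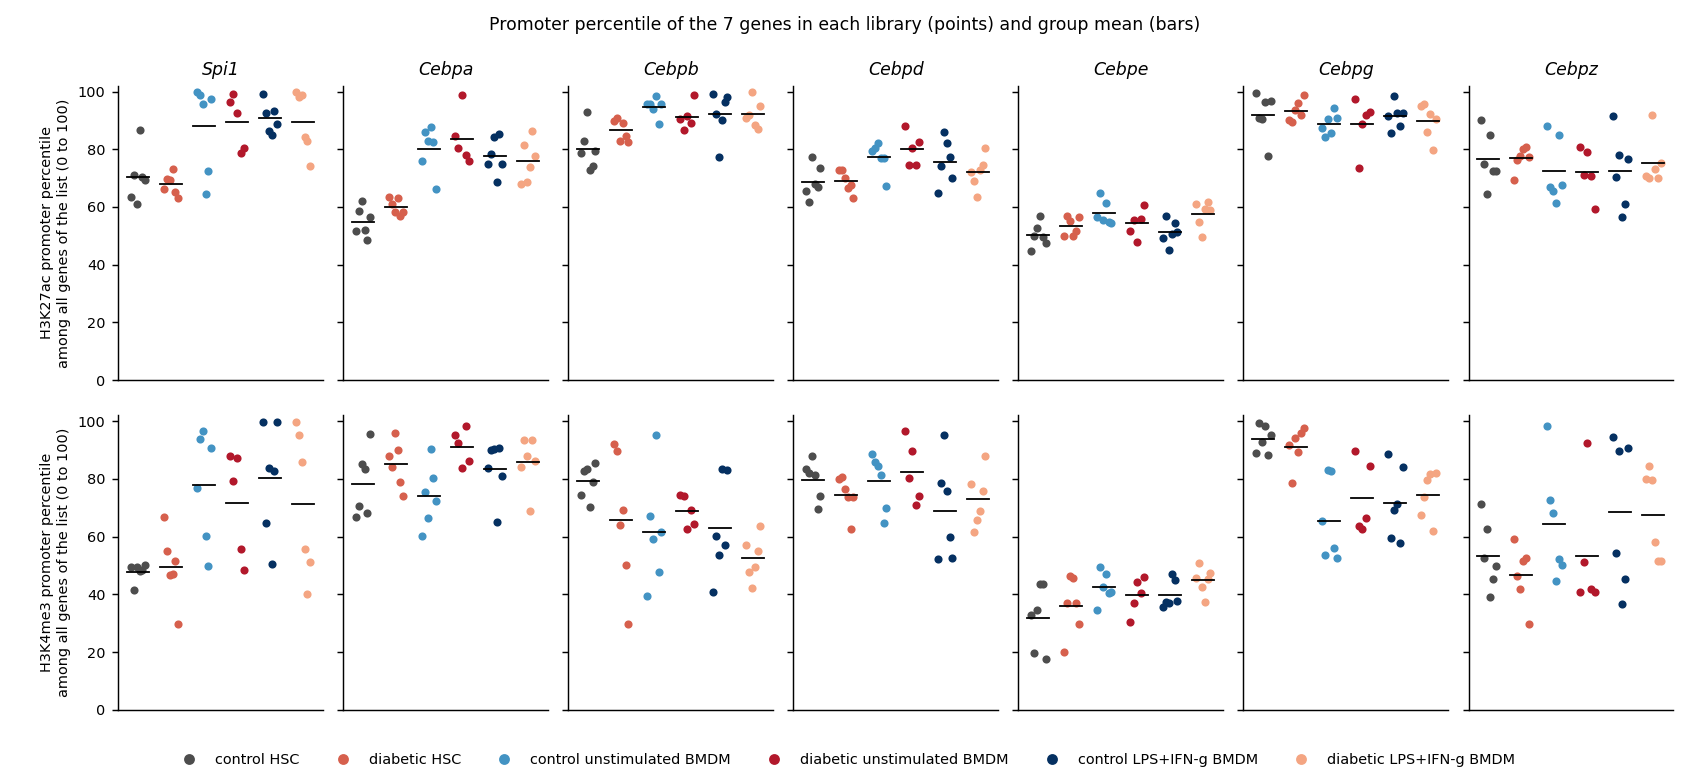
Promoter percentile (0 to 100, y axis) of the 7 genes by library, with H3K27ac in the upper row and H3K4me3 in the lower, where each point is 1 peak list, the 6 columns of points in a panel are the groups and each bar is a group mean. Cebpa H3K27ac lies at 48.5 to 63.4 in all HSC lists and at 66.1 or above in all BMDM lists, whereas Cebpg H3K4me3 is at 78.6 or above in HSC and spreads down to 52.4 in unstimulated BMDM.

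By mean H3K27ac percentile in control HSC the order was Cebpg (91.9), Cebpb (80.1), Cebpz (76.6), Spi1 (70.3), Cebpd (68.8), Cebpa (54.9) and Cebpe (50.3). In unstimulated control BMDM it was Cebpb (94.7), Cebpg (88.8), Spi1 (88.1), Cebpa (80.2), Cebpd (77.2), Cebpz (72.4) and Cebpe (57.9). In both orders every gene overlapped its neighbours in the range of its lists, so no neighbouring pair stood apart.

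H3K4me3 at the same promoters gave another picture. Only Cebpg was called, and it fell from control HSC to control BMDM, 1 of 7 members beside 3.16% of all genes. In diabetic cells none of 7 was called, beside 0.214% of all genes (3151 genes at an unadjusted p under 0.05). The median difference of the members was −0.489 in control and 6.08 in diabetic cells, against −2.21 and −2.71 for all genes.

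Cebpg H3K4me3 was at 89.1, 99.3, 92.9, 98.4, 88.3 and 95.1 in control HSC and at 65.6, 53.6, 82.9, 82.7, 56.0 and 52.4 in control BMDM. No BMDM list reached the lowest HSC list. The difference was −28.3 (SE 6.30, limma adjusted p = 0.0140), and the median rank of the peak was 1272 against 9352. It was not called with peaks ordered by fold (−29.1, adjusted p = 0.102) or with list length as a covariate (−27.7, adjusted p = 0.0952). H3K4me3 lists of control HSC held 37378 to 109214 peaks and those of unstimulated control BMDM 81003 to 212718, so list length moved with this comparison. In diabetic cells, with HSC at 78.6 to 97.8 and BMDM at 62.8 to 89.7, the difference was −17.8 (SE 6.61, limma adjusted p = 0.193).

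Spi1 H3K4me3 was at 41.5 to 50.2 in control HSC (median 48.9) and at 76.9, 93.8, 96.6, 60.2, 49.7 and 90.7 in control BMDM. All but 1 of the BMDM lists lay above all HSC lists. The difference of 30.1 was larger than that of any other member in this mark but was not called (SE 9.40, limma adjusted p = 0.0594). It passed with the replicate number as a block (adjusted p = 0.0399) and in an exact permutation test per gene (adjusted p = 0.0192). In diabetic cells the difference was 22.3 (SE 9.86, limma adjusted p = 0.277). Cebpb H3K4me3 was 79.2 ± 5.87 in control HSC and 61.7 ± 19.2 in control BMDM (SD, n = 6), a difference of −17.5 that was not called (limma adjusted p = 0.121), where its H3K27ac rose.

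H3K4me3 peaks were present at the Cebpa, Cebpd and Cebpg promoters in all 35 lists and at the Spi1, Cebpb and Cebpz promoters in 34. The missing one was in each case diabetic HSC list 6, the shortest of all with 13730 peaks. Cebpe, the granulocyte factor, held one in 31 of 35 lists, in 4 of 6 of each HSC group and in every BMDM list. Its group means of H3K4me3 were 32.0 to 44.9.

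**Figure D2:**
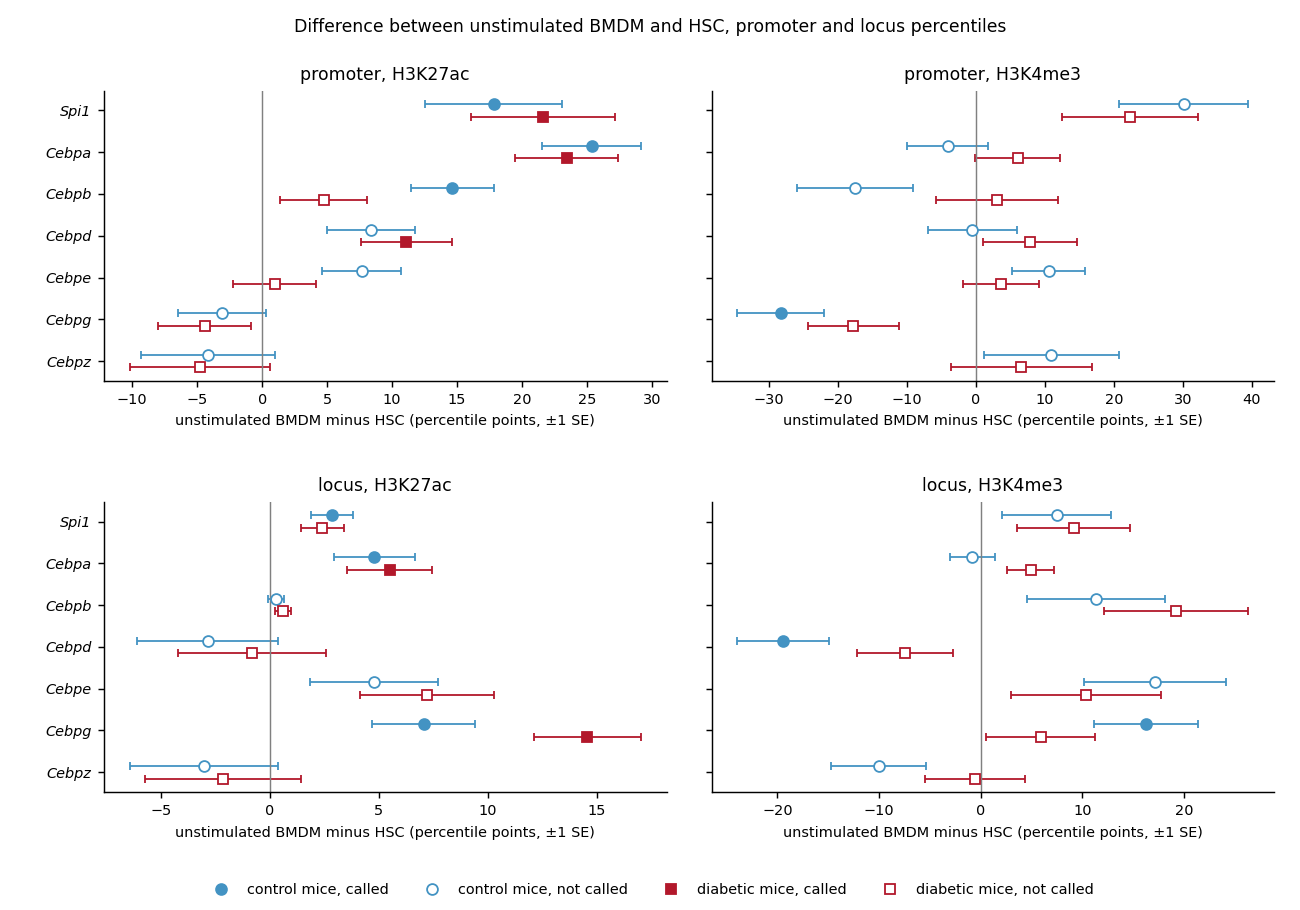
Difference in percentile between unstimulated BMDM and HSC (x axis, percentile points) for the 7 genes, at promoters and over loci and for both marks, with bars of 1 SE and filled points where limma over all genes gave an adjusted p under 0.05. For promoter H3K27ac, Cebpa is filled at 25.3 and 23.4 and Spi1 at 17.8 and 21.6, and for promoter H3K4me3 the 1 filled point is Cebpg in control cells at −28.3.

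In BMDM, Spi1 promoter levels also moved with the replicate number. The mean H3K27ac percentile of lists 1–3 minus that of lists 4–6 was 20.0 and 13.9 in unstimulated control and diabetic BMDM and 3.70 and 18.4 in stimulated BMDM, against −10.2 and 1.14 in HSC. For H3K4me3 it was 22.2, 19.9, 5.24 and 44.5 in BMDM and −2.07 and 13.3 in control and diabetic HSC. For Spi1, every list 1–3 lay above every list 4–6 only in diabetic BMDM, in both states for H3K27ac and when stimulated for H3K4me3. Cebpz H3K4me3 gave 30.8, −12.4, 21.9 and 27.8 in BMDM and 17.3 and 4.71 in HSC. Cebpd H3K4me3 gave 14.4, 10.3, 12.6 and −9.04 in BMDM and 9.40 and 9.01 in HSC. Over all genes, deviations of BMDM lists from their group means correlated at 0.0758 (H3K27ac) within these ranges of numbers and at −0.0746 across them. The labels name no batch, and the part of the numbers in the results was not tested further than by a term for them in the fit, chosen after seeing the data, under which H3K4me3 of Spi1 in control cells was called (adjusted p = 0.0282).

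The second question was whether diabetes or stimulation moved these promoters. None of 21 disease tests and 14 stimulation tests per mark was called. In simulated data a shift of 10 points between control HSC and BMDM was called in 7.46% of genes for H3K27ac and 0% for H3K4me3. Changes of that size are therefore not excluded here. Disease differences ran from −3.61 to 6.51 for H3K27ac (SE 3.05 to 5.52, lowest limma adjusted p = 0.627) and from −13.4 to 17.0 for H3K4me3 (SE 5.30 to 10.2, lowest 0.790). Stimulation differences ran from −7.85 to 3.20 (lowest limma adjusted p = 0.287) and from −16.4 to 14.1 (lowest 0.913). The mean H3K27ac percentile of 10 LPS and IFN-g response genes was 32.6 to 47.6 in unstimulated and 38.4 to 52.7 in stimulated control BMDM. In diabetic BMDM it was 31.7 to 40.7 and 40.9 to 53.3, without overlap. For H3K4me3 these genes overlapped in both, at 30.5 to 36.9 and 33.5 to 42.6 in control and 32.8 to 37.2 and 33.3 to 49.4 in diabetic cells. Over all genes, H3K27ac called 0.0137% between diabetic and control HSC, 0% between diabetic and control cells in either BMDM state, 0% for stimulation in control cells and 1.37% in diabetic cells. H3K4me3 called 0% in each of these 5 comparisons. At an unadjusted p under 0.05 the counts over all genes were 470 to 3151.

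At an unadjusted p under 0.05, 5 of the 70 member tests passed, and none held after adjustment over all genes. In the comparisons of these 5, in the order given here, 470, 809, 860, 952 and 3151 of 21938 genes passed at that level. The 5 are therefore listed as description and not as results about the members. Cebpb H3K27ac in HSC was 6.51 higher in diabetic mice (limma adjusted p = 0.971). Cebpa H3K4me3 in unstimulated BMDM was at 60.3 to 90.3 in control and at 83.9 to 98.4 in diabetic lists, a difference of 17.0 (SE 6.15, limma adjusted p = 0.790). The others were Cebpe H3K27ac between diabetic and control stimulated BMDM (6.29) and on stimulation of control BMDM (−6.70), and Cebpd H3K27ac on stimulation of diabetic BMDM (−7.85). Of 14 tests per mark of a difference between comparisons, none was called (lowest limma adjusted p = 0.783 and 0.907).

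Over the whole loci, the covered length of each gene body with 50 kb flanks was ranked among all genes. By this measure Spi1, Cebpa and Cebpg gained H3K27ac from control HSC to BMDM and Cebpa and Cebpg did so in diabetic cells, 3 and 2 of 7 beside 34.1% and 32.1% of all genes, which is near the share of any gene. Spi1 rose by 2.86 from a locus percentile of 93.01 to 95.9 (SE 0.946, limma adjusted p = 0.0180), Cebpa by 4.80 from 90.8 (SE 1.86, adjusted p = 0.0439) and Cebpg by 7.06 from 79.5 (SE 2.35, adjusted p = 0.0184). In diabetic cells Cebpg rose by 14.6 (SE 2.46, limma adjusted p = 2.17e-05), with no overlap, and Cebpa by 5.51 (SE 1.95, adjusted p = 0.0289). The Cebpa and Cebpg loci overlap on chromosome 7 and share 7 regions, so these are not separate results.

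Single lists decided some of these calls. With the 10000 strongest peaks of each list the Spi1 difference was −2.64 (adjusted p = 0.525). Spi1 was not called without control HSC list 4 (2.12, adjusted p = 0.0735) or without the lists set apart (2.53, adjusted p = 0.0778), and Cebpg in control cells not without control BMDM list 5 or HSC list 6 (6.09 and 6.11). Cebpa was not called in control cells without BMDM list 1, 2, 3 or 4 (4.31, 4.78, 4.47 and 4.83) or HSC list 1 or 5 (4.17 and 2.80), nor in diabetic cells without BMDM list 1, 4 or 6 (5.11, 5.18 and 5.46) or HSC list 1, 5 or 6 (5.34, 5.19 and 3.79).

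Cebpb stood at the top of the scale. Its locus percentile was 99.7 in control HSC and 99.97 in control BMDM, so the measure had no room to move, while the length under H3K27ac peaks was 37.1 ± 4.7 kb and 57.6 ± 14.8 kb of 101.504 kb (SD, n = 6). On normal scores, which spread the ends of the scale, the Cebpb locus was called in control (adjusted p = 0.000145) and diabetic cells (adjusted p = 0.0224) and on stimulation of diabetic BMDM (adjusted p = 0.00679). Spi1 had 25.04 ± 3.69 kb and 32.2 ± 11.4 kb covered of 133.367 kb. Cebpd and Cebpz had the least, with group means of 4.1 to 5.6 kb.

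For H3K4me3, Cebpg rose by 16.2 (SE 5.12, limma adjusted p = 0.0143) and Cebpd fell by 19.4 (SE 4.53, adjusted p = 0.00159) from control HSC to BMDM, 2 of 7 beside 35% of all genes. With the 10000 strongest peaks of each list the Cebpg difference was −26.8 and the Cebpd difference 0.392. The length under H3K4me3 peaks at Cebpd was 2.8 ± 0.3 kb in control HSC and 4.3 ± 1.0 kb in BMDM, so its percentile fell while its covered length did not. In diabetic cells none of 7 was called, beside 3.71%. For disease and stimulation no locus was called in either mark. The shares of all genes were 0%, 0% and 0.00456% for disease and 0% and 4.4% for stimulation in H3K27ac, and 0.109%, 0% and 0% for disease and 0% and 0% for stimulation in H3K4me3. At an unadjusted p under 0.05 the counts over all genes were 85 to 4525.

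Single H3K27ac regions were read next. A region is a stretch under a peak in at least 5 of the 35 lists, its percentile is the order of its strongest peak among all regions of a list, and 188 of 192991 lie in the 7 loci: 51 at Spi1, 32 at Cebpe, 31 at Cebpg, 30 at Cebpa, 29 at Cebpb, 14 at Cebpz and 8 at Cebpd, with 7 of them in a pair of loci. Of these, 150 lie outside any promoter and 28 were held by all 35 lists. Between control HSC and BMDM 25 were called, 20 higher and 5 lower, which is 13.3% beside 10.2% of all regions. Between diabetic HSC and BMDM 9 were called, 8 higher and 1 lower (4.79% beside 6.06%). By member, the control calls were 8 higher at Cebpb, 4 higher at Cebpa, 4 higher and 1 lower at Spi1, 3 higher and 2 lower at Cebpe, 2 higher and 1 lower at Cebpg, 1 lower at Cebpz and none at Cebpd, where the regions of Cebpa and Cebpg share 1. The 5 regions called in both comparisons are named here among others. A region without a peak in a list took the middle rank of its unmarked regions, which lay at 16.7 to 40.8 by list. A region that entered through the lists of a single kind of cell was bound to be higher there, so its call is a description. An exact permutation test per region, whose smallest possible p is 0.00216 with 6 against 6 lists, called none of the regions in the loci (lowest adjusted p = 0.0515). Adjustment over 192991 regions leaves such a test little room for a call, so its lack of calls decides nothing about these regions.

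Spi1 holds a run of H3K27ac peaks before its start in every list, over the upstream element shown above, an enhancer bound by PU.1 itself in myeloid cells. The region 15.7 to 6.4 kb before the start, 9.31 kb long, had a region percentile of 96.1 in control HSC and 97.5 in control BMDM and was not called. The element (16 to 12 kb before the start) held an H3K27ac peak in all 35 lists and had 3221 ± 312 bp covered in control HSC and 2516 bp in control BMDM. H3K4me3 there was not tested, and its presence and length depend on list length, which was greater in BMDM for this mark as given above. It was present in 2 of 6 control HSC lists and 4 of 6 diabetic HSC lists, and in 23 of 23 BMDM lists. It covered 142 ± 242 bp in control HSC and 1573 ± 300 bp in control BMDM (SD, n = 6), and 2 further annotated Spi1 start sites lie 13.7 kb before the main one. Peaks within 1 kb of those sites also enter the Spi1 promoter percentile, so the promoter and element readings are not separate.

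**Figure D3:**
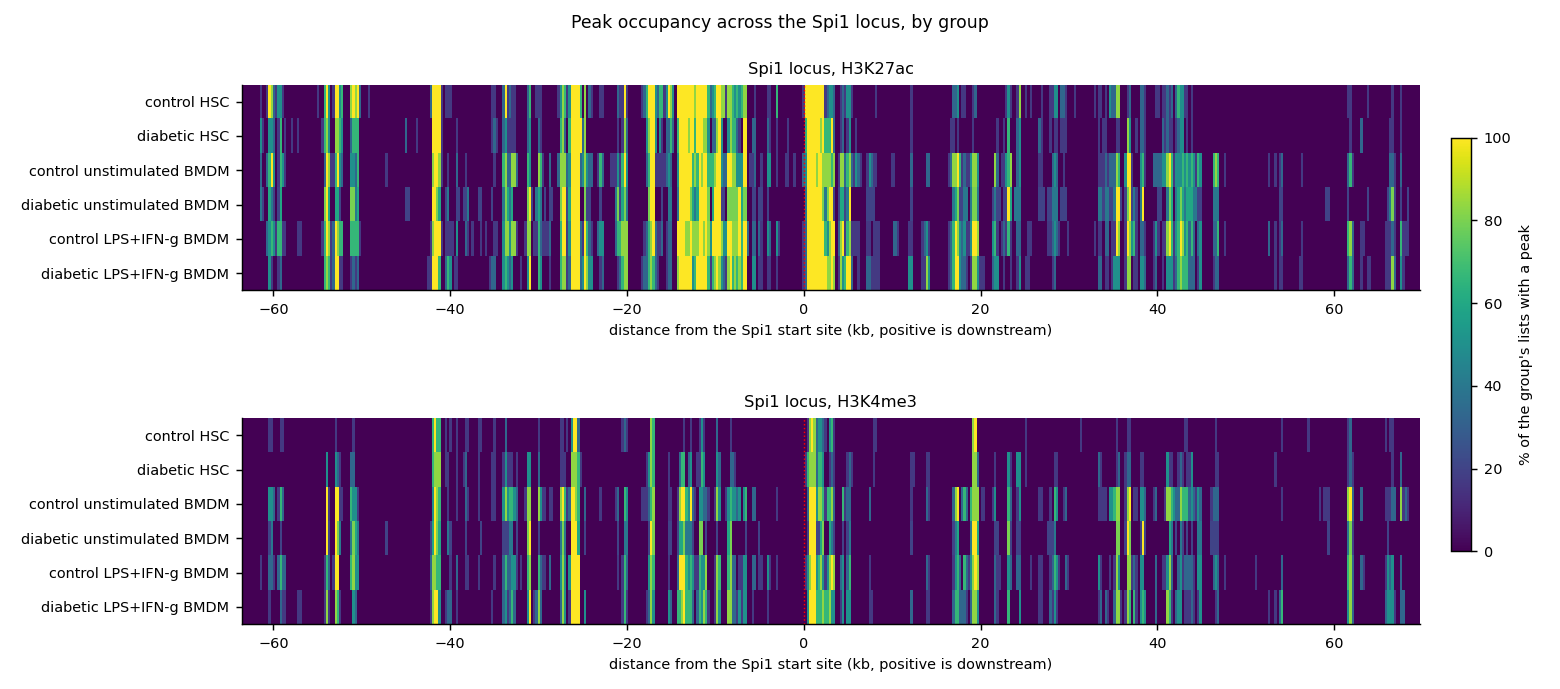
Share of each group's lists with a peak (colour, 0 to 100%) against distance from the main Spi1 start site (x axis, kb) for H3K27ac and H3K4me3, with 1 row per group. H3K27ac peaks between 15.7 and 6.4 kb before the start are present in all 6 groups without covering it throughout, whereas H3K4me3 between 16 and 12 kb before the start is held by 2 of 6 control HSC lists and by all BMDM lists.

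A pair of neighbouring regions lies downstream of Spi1, inside Mybpc3, and the first of them was called between the HSC groups. This region, chr2:91132497-91133745 (36.4 to 37.6 kb after the start), was held by 2 of 6 control and 6 of 6 diabetic HSC lists. Its region percentiles were 28.7, 26.9, 57.1, 26.5, 80.2 and 26.4 in control HSC and 82.8, 85.8, 79.8, 89.7, 88.7 and 87.8 in diabetic HSC, and only control list 5 reached the range of the diabetic lists. The difference was 44.8 (SE 8.41, limma adjusted p = 0.0160), the only region of the 188 called between diabetic and control HSC, 1 of 188 beside 0.0948% of all regions. It ranged from 41.9 to 52.6 with 1 list left out, called each time. It was not called on normal scores (adjusted p = 0.0728) or in the exact permutation test (adjusted p = 0.447), and the matching region under peaks of at least 10 lists was not called either (45.1, adjusted p = 0.118). From control HSC to control BMDM, a comparison that shares the control HSC lists, it rose by 38.7 (SE 8.41, limma adjusted p = 0.00192), and in diabetic cells the difference was 5.21 (limma adjusted p = 0.831).

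The second, chr2:91130095-91131981 (34 to 35.9 kb after the start), had means in the opposite order. It was held by 6 of 6 control HSC lists and 1 of 6 diabetic HSC lists, with means of 82.3 ± 5.7 and 42.8 ± 21.8 (SD, n = 6). The difference of −39.6 between diabetic and control HSC was not called (SE 10.2, limma adjusted p = 0.158). The region was held by 5 of 5 diabetic BMDM lists with a mean of 86.6. Between diabetic HSC and BMDM it rose by 43.8 (SE 10.7, limma adjusted p = 0.00876), and in control cells the difference was −10.5 (limma adjusted p = 0.556). In neither BMDM state was a disease difference called for any of the 188 regions, beside 0.00518% and 0.00155% of all regions.

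Cebpa, the progenitor factor, rose in H3K27ac at its promoter region, chr7:35117611-35121380, by 4.26 in control cells from a mean of 93.6 (SE 0.809, limma adjusted p = 0.000442) and by 2.80 in diabetic cells (SE 0.849, adjusted p = 0.0398). The diabetic call was lost in 9 of 35 fits with 1 list left out (2.39 to 2.99), among them each that left out a diabetic BMDM list, and with the replicate number as a block (adjusted p = 0.0501). Its enhancer region 36.1 to 38.0 kb after the start, chr7:35155422-35157270, which holds the sequence shown above, was held by all 35 lists and rose by 4.28 in control cells from 92.0 to 96.3 (SE 1.02, adjusted p = 0.00484), with 2.41 in diabetic cells (adjusted p = 0.192). H3K4me3 at this enhancer was present in 2 of 6 control and 3 of 6 diabetic HSC lists, and in 6 of 6 control and 4 of 5 diabetic unstimulated BMDM lists. Farther out, chr7:35171212-35173206 (51.9 to 53.9 kb after the start) went from 3 of 6 control HSC lists to 6 of 6 control BMDM lists and rose by 36.8 (SE 8.05, adjusted p = 0.00205). Between Cebpa and Cebpg, chr7:35105716-35106348 rose by 24.2 in control cells (SE 7.55, adjusted p = 0.0332) and by 32.7 in diabetic cells (SE 7.92, adjusted p = 0.00819). The control call there was lost without any of 7 single lists (BMDM 2, 3, 4 and 6 and HSC 1, 2 and 5), with 16.1 as the lowest value, without HSC list 2.

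Cebpb, an inflammatory factor, had the most called regions. A stretch of 13.6 kb downstream of the gene, chr2:167704216-167717813 (15.3 to 28.9 kb after the start), held a peak in all 35 lists, which cover more or less of it. Its region percentile was 91.9 in control HSC and 97.3 in control BMDM, a rise of 5.42 (SE 0.847, limma adjusted p = 3.04e-05), and rose by 5.74 in diabetic cells (SE 0.888, adjusted p = 4.33e-05). It also rose at chr2:167723683-167726392 (34.8 to 37.5 kb) in control cells, by 18.7 (SE 5.22, adjusted p = 0.0162). The promoter region, 8.29 kb long, rose by 1.47 in control cells (SE 0.488, adjusted p = 0.0463), a call lost in 21 of 35 fits with 1 list left out (1.31 to 1.73 over all 35, adjusted p up to 0.0986) and with the replicate number as a block (adjusted p = 0.0571).

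The 1 region called for stimulation also lies at Cebpb, chr2:167697489-167700567 (8.6 to 11.7 kb after the start). In diabetic BMDM it was at 68.3, 61.1, 38.9, 81.0 and 85.1 unstimulated and at 88.96, 93.7, 97.1, 90.1, 94.6 and 92.8 with LPS and IFN-g, with no overlap. The value of 38.9 is the rank of a region without a peak in list 4, the shortest of that group with 54313 peaks. The region rose by 26.0 (SE 5.04, limma adjusted p = 0.0161), 1 of 188 beside 0.211% of all regions, and without stimulated list 3 the value was 25.2 (adjusted p = 0.0507). It was not called with peaks ordered by fold (24.2, adjusted p = 0.0855) or in the exact permutation test (adjusted p = 0.377). Its groups without overlap already reach the smallest p of that test, so the test could not call this region. The same unstimulated lists entered the comparison with diabetic HSC, where the region fell by 18.0 (SE 5.04, adjusted p = 0.0245), not called without BMDM list 2 or 4 or HSC list 1 or 6 (−16.5, −10.98, −16.8 and −16.3). In control BMDM it was at 91.01, 86.2, 81.9, 73.7, 93.4 and 80.3 unstimulated, and no region of the 188 was called for stimulation in control cells, beside 0.00104% of all regions.

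**Figure D4:**
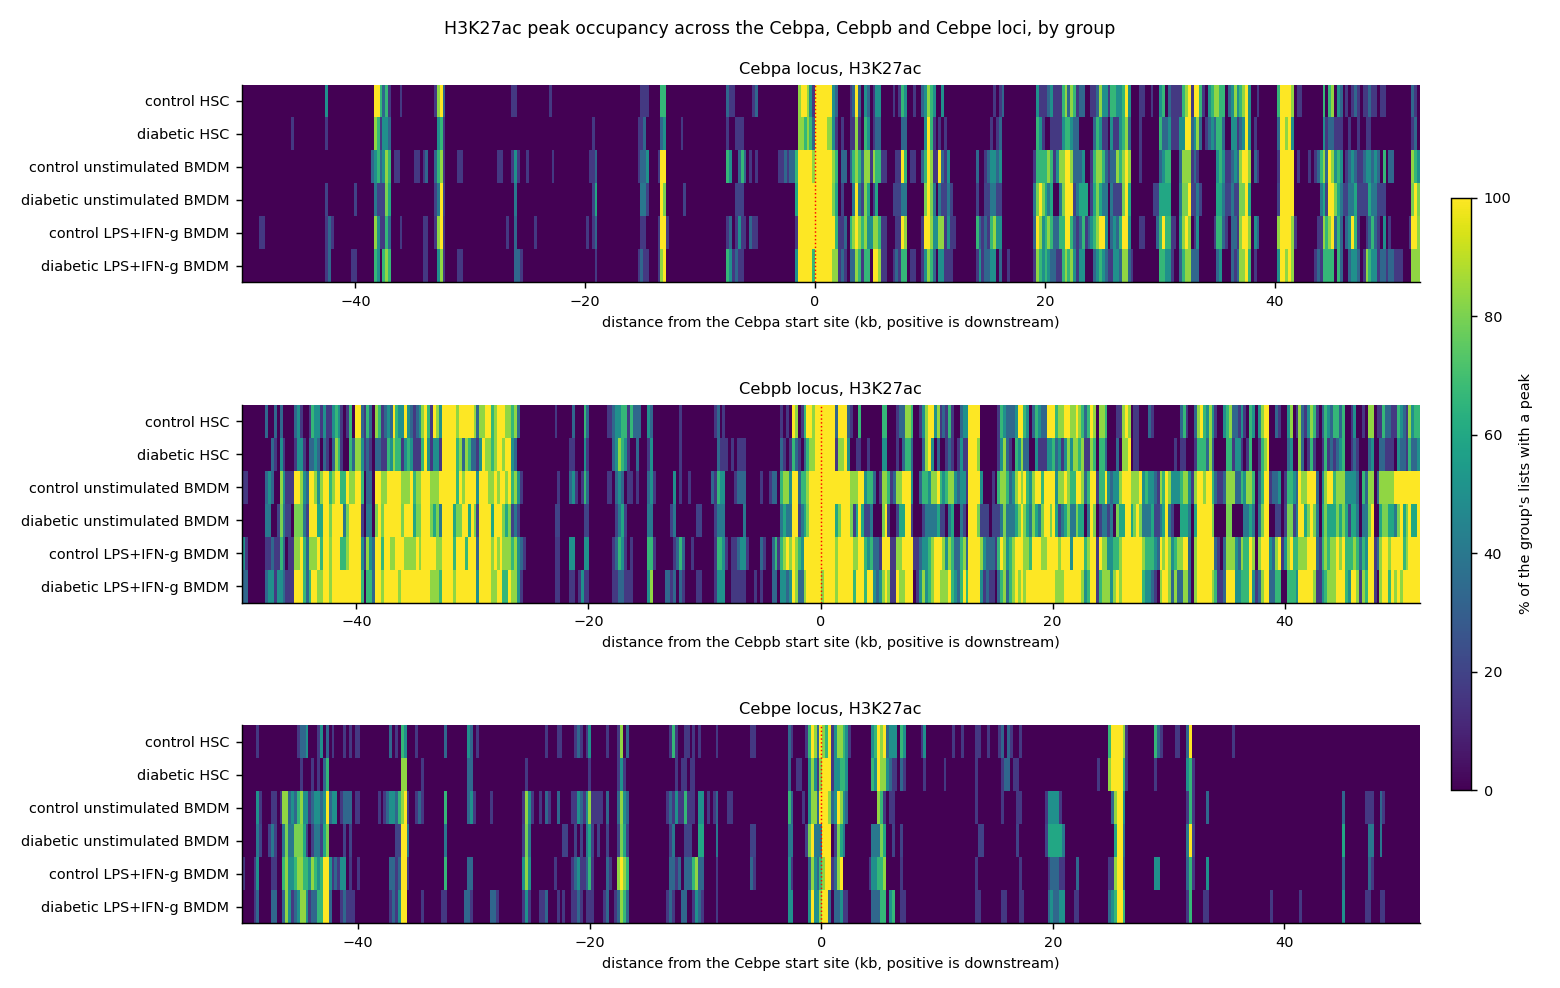
Share of each group's lists with an H3K27ac peak (colour, 0 to 100%) against distance from the start site (x axis, kb) for Cebpa, Cebpb and Cebpe, with 1 row per group. The Cebpb stretch from 15.3 to 28.9 kb after the start holds peaks in every group, with more of it covered in the BMDM rows than in diabetic HSC, and the Cebpe enhancer 4.3 to 6.4 kb after the start is held by all HSC lists and by 4 to 5 lists of each BMDM group.

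Cebpe, the late granulocyte factor, had the reverse order at its known enhancer. The region 4.3 to 6.4 kb after the start, chr14:54705758-54707863, was held by 12 of 12 HSC lists and by 5, 4, 5 and 5 lists of the BMDM groups, with means of 88.3 and 88.1 in HSC and 63.4 to 70.8 in BMDM. The differences of −20.6 and −24.7 were not called (limma adjusted p = 0.135 and 0.111). Farther from the start, chr14:54704985-54705276 was called lower in control BMDM (mean 27.3) than in control HSC (62.3), a call that is given below with its limits. The other called regions at Cebpe lie in neighbouring genes. Within Acin1, chr14:54682976-54683250 fell by 43.1 in control cells (SE 8.86, adjusted p = 0.00110), held by 5 of 6 HSC and 0 of 6 BMDM lists. Within Slc7a8, chr14:54754726-54758864 rose by 26.7 in control cells (SE 5.58, adjusted p = 0.00129) and by 21.5 in diabetic cells (SE 5.85, adjusted p = 0.0203), the latter not called without BMDM list 2 or HSC list 6 (19.2 and 16.9).

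At Cebpg, a region of 6.65 kb within Pepd, chr7:35024927-35031572 (25 to 31.6 kb after the start), was held by all lists and rose by 10.9 in control cells from 84.9 (SE 2.47, adjusted p = 0.00303), with 7.87 in diabetic cells (adjusted p = 0.0614). At Cebpz a region within Prkd3, chr17:78966690-78966851, fell by 33.6 in control cells (SE 8.18, adjusted p = 0.00575). This region was held by 4 of 6 control HSC lists, 1 of 6 diabetic HSC lists and no BMDM list. It reached the 5 lists that define a region only through HSC, where it was high. Its call therefore describes occupancy and adds no support for a fall. The 8 regions at Cebpd held no call.

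The other called regions between HSC and BMDM were these. Without the lists set apart, 13 of the 25 control calls and 1 of the 9 diabetic calls were lost. Near Spi1 in control cells, a region within Madd 46.4 to 47.03 kb after the start rose by 33.02 (SE 8.65, limma adjusted p = 0.0103), held by 0 of 6 HSC and 5 of 6 BMDM lists, and was called with any 1 list left out but not without the lists set apart (24.8, adjusted p = 0.0867). An intron region of Spi1 3.88 to 5.43 kb after the start rose by 27.5 (adjusted p = 0.0306) and the Madd start region by 20.9 (adjusted p = 0.0314), while a region 3.24 to 2.90 kb before the start fell by 31.3 (adjusted p = 0.0438). These 3 were not called without BMDM list 1, 2, 3, 5 or 6 or HSC list 2 or 5 (22.01 to 27.4), without BMDM list 2, 3 or 6 or HSC list 4 (13.7 to 20.8), and without BMDM list 2, 3, 4 or 6 or HSC list 2, 4, 5 or 6 (−31.6 to −26.3). In diabetic cells the Spi1 promoter region rose by 2.32 (SE 0.724, adjusted p = 0.0464), lost in 16 of 35 fits with 1 list left out.

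At Cebpb in control cells, the region of another annotated start of Tmem189, 45.8 to 39.5 kb before the Cebpb start, rose by 12.4 (SE 2.39, limma adjusted p = 0.000554) and was called with any list left out. Regions 7.20 to 6.54 kb before the start (28.7, adjusted p = 0.0276) and 6.40 to 8.08 kb (15.7, adjusted p = 0.0411), 43.3 to 47.8 kb (6.70, adjusted p = 0.0213) and 48.1 to 53.4 kb after it (4.70, adjusted p = 0.0279) also rose, and were lost in 2, 9, 4 and 2 of 35 fits with 1 list left out. The last of them, which rose by 5.45 in diabetic cells (adjusted p = 0.0211), went down to 3.24 without control HSC list 5 and to 4.21 without diabetic HSC list 5. At Cebpe in control cells, regions within Slc7a8 25.9 to 25.2 and 37.4 to 35.8 kb before the start rose by 46.2 (adjusted p = 0.00766) and 24.1 (adjusted p = 0.0232), the second not called without BMDM list 3 or 6 or HSC list 4 or 6 (16.9 to 22.5). A region 6.90 to 7.19 kb after the Cebpe start fell by 34.96 (adjusted p = 0.0499) and one within Pepd 58.6 to 59.8 kb after the Cebpg start by 33.9 (adjusted p = 0.0387), lost in 23 and 7 of 35 such fits. A region between Cebpa and Cebpg, 33.2 to 32.4 kb before the Cebpa start, rose by 28.1 in diabetic cells (adjusted p = 0.0482), lost in 25 of 35.

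**Figure D5:**
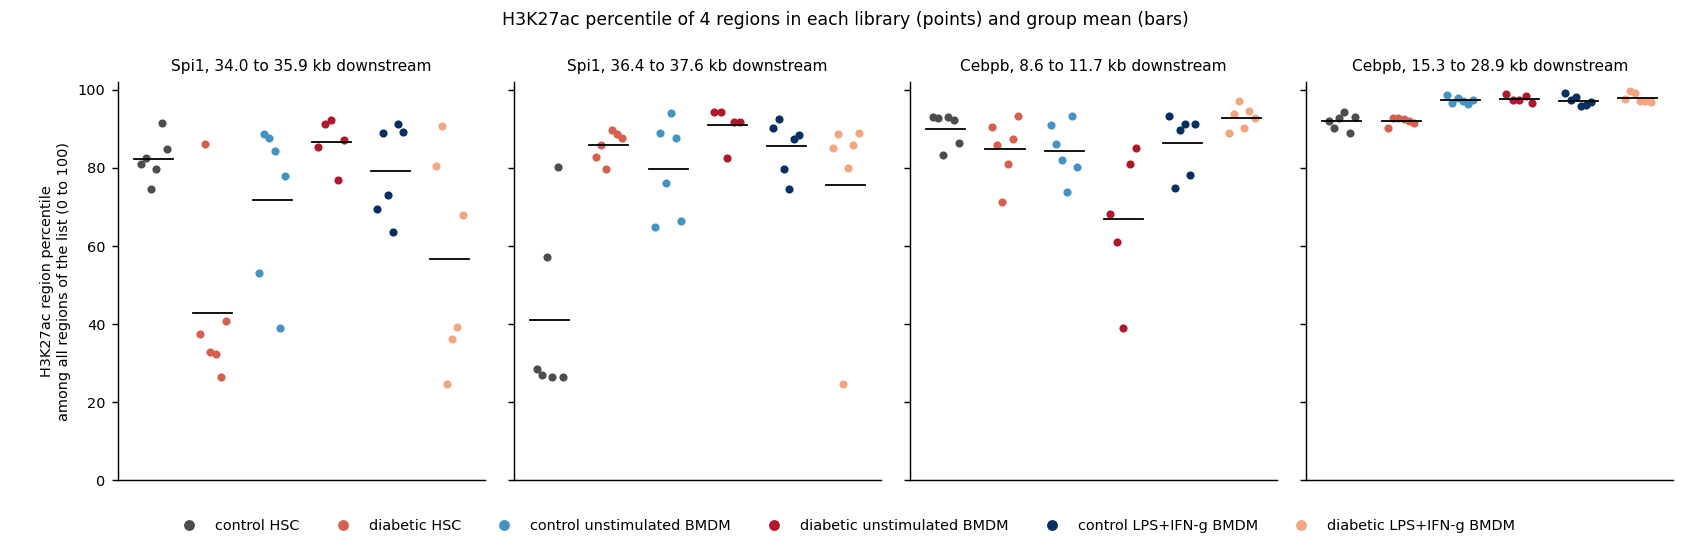
H3K27ac region percentile by library (y axis, 0 to 100) in the 6 groups for 2 regions downstream of Spi1 and 2 downstream of Cebpb, where each point is 1 peak list and each bar a group mean. The regions 34 to 35.9 and 36.4 to 37.6 kb after the Spi1 start have means in opposite order in the HSC groups (82.3 and 42.8, not called, and 41.0 and 85.8, called), and the Cebpb region 8.6 to 11.7 kb after the start is lowest in unstimulated diabetic BMDM.

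Other genes of the pathway were read from 4 lists at the promoter, where control and diabetic cells again gave comparisons of BMDM with HSC beside the same 11% and 10.7%. Among 12 ETS relatives of Spi1, 3 rose in control and 2 in diabetic cells and none fell, with Elk3 (18.97, SE 4.03) and Ets2 (15.2, SE 3.69) the largest in control cells. Among 12 leucine-zipper partners and relatives of the Cebp genes, 4 rose and 1 fell in control cells and 3 rose and 2 fell in diabetic cells. Atf3, a stress-response factor, rose by 31.0 and 30.01, and Ddit3, which encodes the C/EBP inhibitor CHOP, fell by 25.5 and 29.7.

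Among 16 partners, antagonists and regulators of PU.1 and C/EBP, 5 rose and 5 fell in control cells and 5 rose and 4 fell in diabetic cells. Gata1, the erythroid factor that opposes PU.1, fell by 29.3 and 24.8, Myb, a progenitor factor, fell by 22.6 and 19.7, and Id2 rose by 43.9 and 40.8. Erythroid markers were higher in HSC too, as given above, and their part in the Gata1 values was not tested. Of 20 myeloid target genes, 3 rose and 2 fell in control cells and 2 rose and 2 fell in diabetic cells. Fcgr3, an antibody receptor of macrophages, rose by 20.3 and 24.5, and the granule genes Mpo and Ctsg fell by 13.1 and 21.1 and by 21.4 and 20.7. The median differences of the 4 lists in control cells were 0.428, 4.29, 1.66 and 0.562, against 0.568 for all genes. For H3K4me3, Irf4 (26.3, SE 7.11) of the partners and 2 of 20 targets rose in control cells, beside 3.16% of all genes, and none of the 4 lists held a call in diabetic cells, beside 0.214%. No gene of the 4 lists was called for disease or stimulation in either mark.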

How the data were processed

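H3K27ac and H3K4me3 were measured by chromatin immunoprecipitation sequencing in 70 libraries (106 samples with 36 inputs). The authors called peaks for each library against its input and deposited, per peak, an integer score, a fold enrichment, a −log10 p-value and a −log10 q-value. Per the labels' processing notes the tools were Bowtie2 2.2.6, MACS2 2.2.7.1, Picard 2.18.14 and 2.19.2, Trim Galore 0.3.3, cutadapt 1.8, FastQC 0.11.3 and bedtools 2.19.1, on GRCm38 (mm10), with roles not given there. Reads were 50-base and single-end in the study's methods. The deposited files hold no counts, so no interval for counting error could be given.

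Rows with the same interval and different summits were joined (9511856 rows to 7828714 peaks on chromosomes 1–19, X and Y). Peaks were ordered within a list by the −log10 p-value (column 8), because its size and that of the fold depend on read depth, and the order is compared in place of the values. Promoters used 93513 start sites of 21938 protein-coding genes (GENCODE M21). Percentiles of promoter, locus (covered length) and region were fitted per mark with limma 3.58.1 in R 4.3.3 (mean-variance trend, 6 group means, 7 comparisons and their differences, Benjamini-Hochberg adjustment over all features, called at an adjusted p under 0.05). Tables were made with Python 3.11.15, numpy 2.4.6 and pandas 2.3.3. The fit was tested on simulated promoter shifts of 10, 20 and 30 points between control HSC and unstimulated BMDM, for genes in the middle of the scale. It called 7.46%, 56.7% and 90.9% of the shifted genes for H3K27ac and 0%, 10.4% and 48.5% for H3K4me3. An uncalled difference of such size is therefore not evidence of no change. The study's methods count n in individual animals, and its text gives 6 per group for this assay. No file names the donor of a library, so p-values measure the spread between libraries. No pair of lists was alike enough to be a duplicate (highest Spearman rho 0.971, 0 shared values).

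All 7 members are named, each called comparison with its values and the rest by range, with the 3 genes most correlated with each, the enhancers known from textbooks, the 2 regions outside promoters per locus with the smallest adjusted p, and up to 3 genes per pathway list. Members and lists were chosen with earlier results of these data known. The replicate numbers were not used as pairs in the main fit. Alternatives were exact permutation tests, normal scores, the 10000 strongest peaks, a −log10 q of 2.0, ordering by fold, an overlap of 200 bp, promoters of 500 bp, loci with 25 kb flanks, regions of 10 lists, a filter on low values, list length, a replicate block, and leaving out lists. After seeing the data, unmarked genes at 0, basic transcripts only and a term for replicate numbers 1–3 or 4–6 were added. Motif searches used RefSeq promoters, in which 3 of the 7 genes were matched.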

Additional observations from a re-analysis of the deposited data

Results flagged for a closer look

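Dixon's criterion was applied to 84 sets of 5 or 6 promoter values, each from a single gene, mark and group. In 4 of the 84 sets a value stood apart from the others, where 4.2 would be flagged by chance. Cebpd H3K27ac was low in list 6 of unstimulated control BMDM (67.2, others 76.9 to 82.2), 1 of the lists set apart in the earlier account. Cebpz H3K27ac was high in list 3 of stimulated diabetic BMDM (92.1, others 69.9 to 75.3). Cebpz H3K4me3 was high in list 4 of unstimulated diabetic BMDM (92.5, others 40.8 to 51.1). Spi1 H3K4me3 was low in list 2 of control HSC (41.5, others 48.2 to 50.2). None of these 4 values belongs to a called comparison.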

How the results depend on the processing

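Of the 7 promoter calls, Cebpa kept both calls under all 49 alternatives of each. Ordering peaks by fold left 3 of 7 calls: Spi1 control 5.11 (adjusted p = 0.713), Spi1 diabetic 16.6, Cebpd diabetic 12.8 and Cebpg H3K4me3 control −29.1 were lost. The exact permutation test lost Spi1 control (17.8, adjusted p = 0.175) and Cebpb control (14.6, adjusted p = 0.0587), normal scores lost Spi1 diabetic (0.999 score units), the 10000 strongest peaks lost Cebpd diabetic (11.1), and list length as a covariate lost Cebpg H3K4me3 (−27.7). With 1 list left out, the promoter count was 6 to 8. The differences then ranged from 15.5 to 22.5 (Spi1 control), 19.1 to 24.3 (Spi1 diabetic), 23.8 to 28.2 and 19.6 to 25.3 (Cebpa control and diabetic), 13.2 to 17.2 (Cebpb control), 9.10 to 12.5 (Cebpd diabetic) and −31.8 to −25.7 (Cebpg H3K4me3). The locus count of 7 became 12 on normal scores, 1 of them for stimulation where the count had been 0, and was 6 to 9 with 1 list left out. With the 10000 strongest peaks the locus differences in control cells reversed for Spi1 H3K27ac (−2.64), Cebpg H3K4me3 (−26.8, adjusted p = 0.0146) and Cebpd H3K4me3 (0.392). The region count of 36 was 0 in the exact permutation test, whose smallest p leaves little room for a call over all regions. It was 25 to 40 with 1 list left out. The 2 region calls for disease and stimulation became 0 in the exact test and 1 on normal scores (Spi1 lost), 1 ordered by fold (Cebpb lost) and 1 with regions of 10 lists (Spi1 lost), and 1 to 3 with 1 list left out (1 without list 3 of stimulated diabetic BMDM). The cause was not tested. In no comparison did every same-numbered pair of lists correlate above 0.1 in its deviations from the group means (lowest pair −0.287 to 0.0464), so the numbers were not taken as pairs, although same-numbered lists were more alike on average in stimulation, with means of 0.0951 (H3K27ac) and 0.112 (H3K4me3) in control cells and 0.163 and 0.171 in diabetic cells, where every pair was above 0, against −0.0321 and −0.0339 for other numbers there. With the replicate number as a block, Spi1 H3K4me3 in control cells (30.1, adjusted p = 0.0399) and the Spi1 locus in diabetic cells (2.65, adjusted p = 0.0324) were gained, the region count was 31 and 5 region calls were lost, 1.47 (adjusted p = 0.0571) at the Cebpb promoter region, 2.85 (adjusted p = 0.0501) at Cebpa and 2.33 at Spi1 among them. Without the lists set apart, all 7 promoter calls held and 26 region calls were made. Depth limits all of this: percentiles compare order within a list and cannot give the amount of a mark.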

Other observations

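The genes whose H3K27ac promoter percentile followed a member most closely over the 35 lists were Lasp1, Aph1c and Tlcd2 for Spi1 (Pearson r = 0.884, 0.878 and 0.871), Sestd1, Pvr and Rnf150 for Cebpa (0.883, 0.876 and 0.874), Slc35f5, Gpr157 and Trio for Cebpb (0.789, 0.772 and 0.758) and S100a10, Smagp and Gas2l1 for Cebpd (0.833, 0.775 and 0.760). The values were lower for Cebpe (Gata4, Gipc2 and Nr2f2, 0.610, 0.609 and 0.603) and for Cebpg (Lig3, Gm49383 and Dnaaf2, 0.608, 0.572 and 0.572). For Cebpz they were Ndufaf7, which shares its promoter (1.000), 4921536K21Rik and Dusp18 (both 0.755). The 35 points share libraries, and cells of 2 types are among them, so these are descriptions of order only.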
